A study of Homo sapiens with 6 samples.

Results

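Metallothioneins, zinc transporters and the zinc-responsive transcription factor MTF1 were examined in HepG2 cells, a human line derived from a hepatocellular carcinoma, after knockdown of the mitochondrial deoxyguanosine kinase DGUOK. Members were taken by symbol from the protein-coding genes of the count table: the MT1 genes with 1 letter, MT2A, MT3, MT4, the numbered SLC30A and SLC39A genes, and MTF1. This gave 33 of the 34036 genes listed, namely 9 metallothioneins, 10 SLC30 genes, 13 SLC39 genes and MTF1; MT1B, MT4 and SLC39A2 were not analysed here. The siDGk cultures received a siGENOME pool of siRNAs against DGUOK and the siCON cultures a non-targeting siRNA, both with Lipofectamine RNAiMAX. Bulk RNA was collected 48 h later from 3 cultures of each group. The labels describe them as independent biological replicates, processed in parallel and sequenced together. The groups were read from sample titles and library names, because the label field for treatment gives the control siRNA in each of the 6.

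Metallothioneins are small cysteine-rich proteins that bind zinc, copper and cadmium, and liver is one of the organs in which they are most abundant. When free zinc rises, MTF1 binds metal response elements near the start sites of metallothionein genes and of SLC30A1. SLC30 (ZnT) proteins move zinc out of the cytosol, across the plasma membrane or into organelles, and SLC39 (ZIP) proteins move it into the cytosol.

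Total counts per library were 19065684, 18915508 and 10527216 in siCON replicates 1, 2 and 3, and 18613138, 15978314 and 21334876 in siDGk replicates 1, 2 and 3. CPM below are counts scaled to a common library size after edgeR's TMM scaling. DGUOK stood at 48.2 to 54.4 CPM in siCON and 6.72 to 10.5 CPM in siDGk libraries, so the libraries matched their labels. The cell type was checked with 8 hepatocyte genes, whose summed level was 51463, 45889 and 44909 CPM in siCON and 27024, 23552 and 22231 CPM in siDGk libraries. The most abundant of them was ALB in siCON, with a mean of 16113 CPM (5401 CPM in siDGk), and SERPINA1 in siDGk libraries, with a mean of 7875 CPM (7770 CPM in siCON). In edgeR's quasi-likelihood test 7 of the 8 were called lower in siDGk cells by the criteria below, against 6.68% of all genes tested. SERPINA1 was the exception, at a log2 fold change of 0.02. TTR, ALB, APOB and AFP had the largest log2 fold changes, at −1.61, −1.58, −1.46 and −1.41. In bulk RNA, fewer cells of a type and less of its RNA per cell cannot be told apart.

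Calls required an edgeR adjusted p (Benjamini-Hochberg over 14476 genes) under 0.05 and a log2 fold change above 0.5 in size; SE stands for the standard error of that change. Of the 33 members, 26 passed the count filter; 5 were called higher and 5 lower in siDGk, where 7.42% of all genes tested were called higher and 6.68% lower. Of the 7 metallothioneins tested 4 were called higher and 0 lower; by unadjusted p (under 0.05, at any fold) these numbers were also 4 and 0, as they were in DESeq2. Of the 4, MT1M had no count in siCON, passed the filter through siDGk libraries alone and lost its call whichever library was left out, which leaves 3. Of the 12 SLC39 genes tested 0 were called higher and 4 lower, and in DESeq2 also 0 and 4. By unadjusted p 1 was higher and 7 were lower at any fold (15.82% and 14.75% of all genes tested), and 0 and 5 beyond the fold threshold (9.73% and 8.92%). Of the 6 SLC30 genes tested 1 was higher and 1 lower. The median log2 fold change was 2.62 for the metallothioneins (2.19 without MT1M), −0.04 for SLC30, −0.37 for SLC39 and 0.02 for all genes tested. Both metallothionein medians include MT1A, with no count in siCON replicate 3, and MT1G, with none in siCON replicate 2. These genes had more than the minimum count of 10 in every siDGk library. The 2.19 lies between MT1G at 1.75 and MT1X at 2.62, so it still rests on such a member. These counts leave out 7 members below the filter: MT1H, SLC30A2 and SLC30A8, with no count in any library, and MT3, SLC30A3, SLC30A4 and SLC39A12.

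The 9 metallothionein genes analysed lie in 1 cluster on chromosome 16 of GRCh38, between 56589074 and 56684196. MT2A (ENSG00000125148.6, chr16:56608584-56609497, plus strand) is the most abundant human metallothionein in most tissues. The coding parts of the 4 metallothioneins called higher are printed below from the Gencode 44 transcripts, 5′ to 3′, with the codons for the metal-binding residue cysteine in capitals, to show how alike the copies are. For each gene the coding transcript with the most cysteine codons was used; each has 3 exons and 186 coding bases, 20 cysteine codons among 61, and a stop codon.
MT2A: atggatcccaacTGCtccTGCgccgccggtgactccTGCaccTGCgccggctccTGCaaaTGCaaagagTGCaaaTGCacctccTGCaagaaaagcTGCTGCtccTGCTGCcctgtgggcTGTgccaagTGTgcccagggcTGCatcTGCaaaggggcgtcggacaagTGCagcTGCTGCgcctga
MT1E: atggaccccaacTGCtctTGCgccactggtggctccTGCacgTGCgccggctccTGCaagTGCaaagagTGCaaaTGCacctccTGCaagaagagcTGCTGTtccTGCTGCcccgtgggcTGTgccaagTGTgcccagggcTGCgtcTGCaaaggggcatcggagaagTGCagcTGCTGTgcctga
MT1X: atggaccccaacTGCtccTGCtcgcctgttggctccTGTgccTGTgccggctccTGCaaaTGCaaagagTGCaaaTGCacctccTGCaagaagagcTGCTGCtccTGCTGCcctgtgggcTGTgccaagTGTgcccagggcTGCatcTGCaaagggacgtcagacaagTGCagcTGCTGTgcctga
MT1M: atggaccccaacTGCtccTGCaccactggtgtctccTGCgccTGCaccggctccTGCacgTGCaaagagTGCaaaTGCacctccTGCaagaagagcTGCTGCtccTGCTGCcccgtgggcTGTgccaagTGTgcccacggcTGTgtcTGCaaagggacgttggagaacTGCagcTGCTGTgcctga
Over the 28 pairs among MT2A and the 7 MT1 genes, coding identity ran from 88.7% to 95.2%. MT3 was further away, at 73.4% to 76.3%. The authors' counting left out reads that align to several places, so levels of single copies are uncertain. Of the 50-base windows of each canonical transcript, 88.9% for MT2A, 89.7% for MT1E and 85.4% for MT1M occurred in no other gene's transcripts, and 100% of the 100-base windows. For MT1X these shares were 49% and 78.0%; a noncoding gene on the same strand overlaps it.

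MT2A stood at 82.3, 147 and 128 CPM in the siCON libraries, in replicate order here and below, and at 1079, 1068 and 1196 CPM in the siDGk libraries. Every siDGk library was far above every siCON library, and the siDGk libraries lay close together. The means were 119 ± 33.2 and 1114 ± 71.2 CPM (SD, n = 3). The log2 fold change reached 3.23 (SE 0.19, edgeR adjusted p = 3.77e-06), or 9.36-fold. Per transcript length MT2A went from 594 to 5097 TPM and led all members in both groups. The study lists MT2A among the leading genes of its interferon and cytokine signaling sets, a choice made on these same libraries.

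MT1E (ENSG00000169715.14) was at 11.6, 17.1 and 11.2 CPM in siCON and at 158, 211 and 240 CPM in siDGk libraries. The groups were again far apart, and siDGk replicate 1 was the lowest of its group. The log2 fold change was 3.92 (SE 0.17, edgeR adjusted p = 1.94e-11), or 15.1-fold. MT1X (ENSG00000187193.8) was at 3.10, 4.32 and 2.29 CPM in siCON and 21.8, 18.0 and 20.7 CPM in siDGk libraries. It had no overlap between groups and a log2 fold change of 2.62 (SE 0.29, edgeR adjusted p = 2.50e-06). The 95% intervals were 2.79 to 3.67 for MT2A, 3.56 to 4.28 for MT1E and 2.01 to 3.22 for MT1X; differences among the 3 genes were not tested.

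The remaining copies were scarce. MT1M had 0 counts in each siCON library and 24, 20 and 15 counts in siDGk replicates 1, 2 and 3. A count of 0 allows up to 0.16, 0.16 and 0.286 CPM in the siCON libraries, and against a floor of 3 counts over the group MT1M was at least 16.7-fold higher in siDGk cells. It passed the filter through the siDGk libraries alone, and its call (adjusted p = 0.035 in edgeR's test) was lost whichever single library was left out, at adjusted p between 0.0554 and 0.139. MT1A had 63, 93 and 0 counts in siCON and 129, 99 and 259 counts in siDGk libraries. Its groups did not overlap, but siCON replicate 3 was at 0 while the other siCON libraries were not, and it was not called (log2 fold change 1.54, SE 0.80, edgeR adjusted p = 0.225; 1.0 without siCON replicate 3 to 2.21 without siCON replicate 2).

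MT1G had 10, 0 and 12 counts in siCON and 40, 43 and 16 counts in siDGk libraries. On the CPM scale siDGk replicate 3 lay within the siCON range, and the log2 fold change of 1.75 (SE 1.29; 1.15 without siCON replicate 2 to 2.76 without siCON replicate 3) was not called. MT1F had 24, 30 and 22 counts in siCON and 49, 33 and 1 in siDGk libraries. The single count in siDGk replicate 3, the deepest library, set it apart from the rest, with a log2 fold change of −0.07 (SE 1.07), and 0.49 without that library. MT3, best known from brain as a growth inhibitory factor, had 5, 31 and 0 counts in siDGk and 0 in siCON libraries and was not tested. MT1H had no count.

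**Figure D1:**
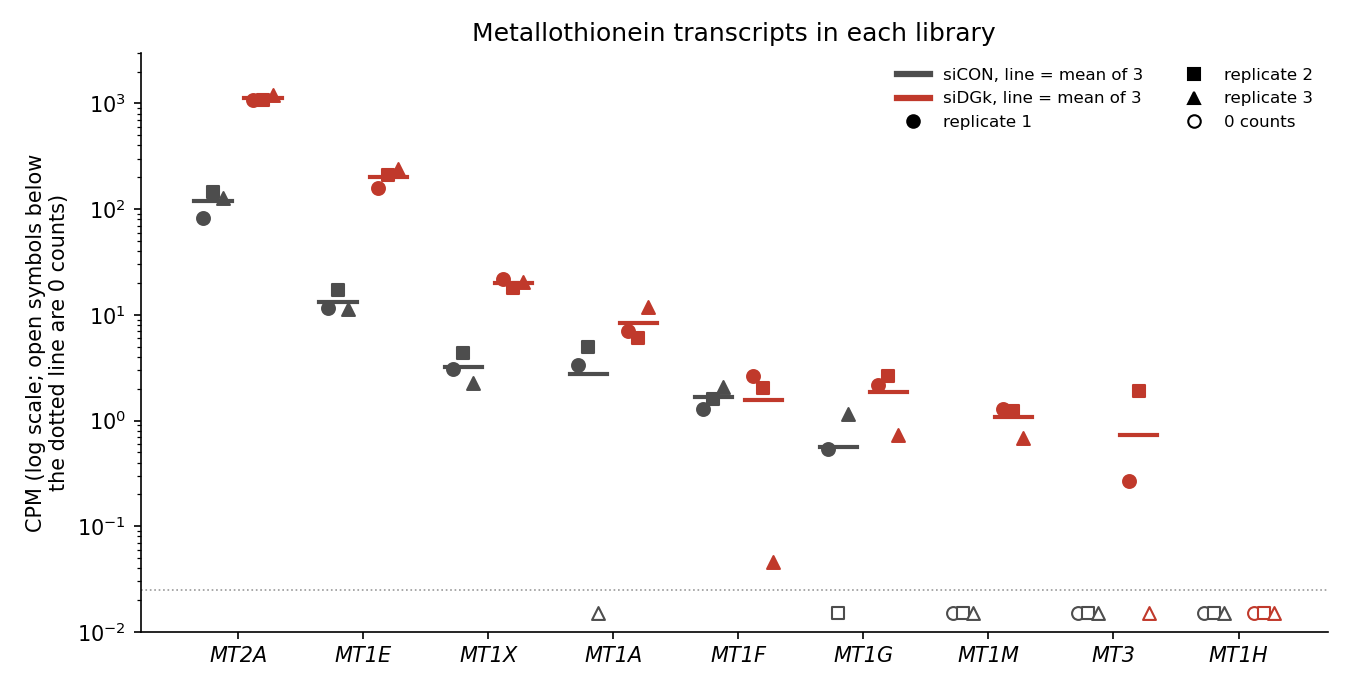
CPM of the 9 metallothioneins on a log scale, 1 symbol per library, with lines at the means of 3 siCON and 3 siDGk libraries; open symbols below the dotted line are libraries with 0 counts. MT2A, MT1E and MT1X have all siDGk libraries well above all siCON libraries. The groups of the scarcer MT1A and MT1M do not overlap either, whereas those of MT1F, MT1G and MT3 do. MT1F is at 1 count in siDGk replicate 3.

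The 9 genes were also summed, which does not recover the reads left out for aligning to several places. The sum was 102, 175 and 145 CPM in siCON libraries and 1272, 1311 and 1471 CPM in siDGk libraries. All siDGk libraries exceeded all siCON libraries, with means of 141 ± 36.5 and 1351 ± 105 CPM (SD, n = 3), 9.60-fold apart. MT2A made up 80.6% to 88.4% of the sum in siCON and 81.4% to 84.8% in siDGk libraries. MT1E made up 7.75% to 11.3% of the sum in siCON and 12.4% to 16.3% in siDGk libraries. The transporter families differed far less between groups. The SLC30 sum was 273, 242 and 247 CPM in siCON and 264, 224 and 224 CPM in siDGk libraries, and overlapped. The SLC39 sum was 1365, 1328 and 1325 CPM in siCON and 1070, 977 and 1014 CPM in siDGk libraries, lower in each siDGk library.

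**Figure D2:**
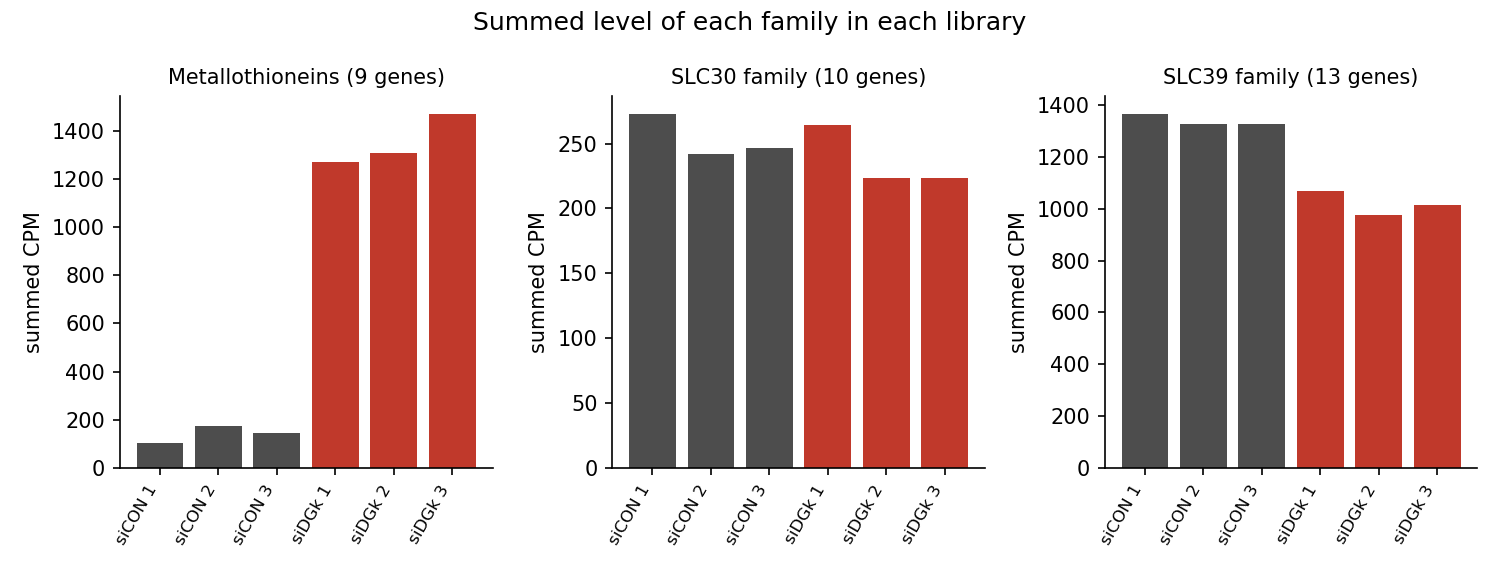
Summed CPM of the metallothioneins, SLC30 genes and SLC39 genes in each library, with bars starting at 0 and a separate scale per panel. The metallothionein bars rise from at most 175 CPM in siCON to at least 1272 CPM in siDGk, the SLC30 bars overlap, and the SLC39 bars are lower in siDGk.

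Metallothionein pseudogenes and noncoding copies were counted separately, and 2 of 8 passed the filter. MT1L had 0 counts in each siCON library and 24, 34 and 15 counts in siDGk replicates 1, 2 and 3. Like MT1M it passed the filter through the siDGk libraries, and it was called higher (adjusted p = 0.0207 in edgeR's test). That call was lost without siCON replicate 1, 2 or 3 (adjusted p = 0.07, 0.0583 and 0.0678) and without siDGk replicate 1 or 2 (0.0834 and 0.0965). MT2P1 had 1, 2 and 0 counts in siCON and 19, 24 and 21 counts in siDGk libraries and also passed the filter through the latter alone. It was not called in edgeR's test (adjusted p = 0.0885) but was called higher in DESeq2. Genes next to the cluster were read as well. Of 10 neighbours 7 were tested. Of these 0 were called higher (0 also by unadjusted p and in DESeq2) and 1 lower, against 7.42% and 6.68% of all genes tested. The median of their log2 fold changes was 0.04. The lower one was CETP, the cholesteryl ester transfer protein, at −1.30. Its call was lost without siCON replicate 2 or 3 (adjusted p = 0.0948 and 0.109 in edgeR's test) and without siDGk replicate 1 or 2 (0.117 and 0.0774). GNAO1, a G protein subunit below the filter, had 0, 1 and 0 counts in siCON and 9, 27 and 17 counts in siDGk libraries.

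MTF1 (ENSG00000188786.9, chr1:37809574-37859592, minus strand) was at 10.1, 11.1 and 14.4 CPM in siCON and 11.8, 9.73 and 17.3 CPM in siDGk libraries. The groups overlapped, replicate 3 was the highest of each group, and the log2 fold change of 0.14 had a 95% interval of −0.43 to 0.71 (adjusted p = 0.804 in edgeR's test). The metal response element core that MTF1 binds was searched as TGCACNC and TGCGCNC on both strands of the RefSeq promoter windows (GRCh38.p14), each with 250 bases before and 50 after a start site, and matches that overlap were counted separately. Windows were found for 24 of the 33 members, of the metallothioneins for MT2A, MT1X and MT1H. MT1A, MT1E, MT1F, MT1G, MT1M, MT3, SLC30A8, SLC39A4 and SLC39A14 had no entry. The 250 bases before the start are given for 2 called metallothioneins and for SLC30A1, the zinc exporter of the plasma membrane, with matches in capitals.
MT2A (chr16:56608334-56608583, plus strand): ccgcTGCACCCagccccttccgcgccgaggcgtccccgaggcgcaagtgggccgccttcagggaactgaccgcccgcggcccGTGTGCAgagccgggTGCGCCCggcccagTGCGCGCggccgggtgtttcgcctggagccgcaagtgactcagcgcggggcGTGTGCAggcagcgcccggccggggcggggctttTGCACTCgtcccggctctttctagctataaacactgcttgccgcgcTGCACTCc
MT1X (chr16:56682220-56682469, plus strand): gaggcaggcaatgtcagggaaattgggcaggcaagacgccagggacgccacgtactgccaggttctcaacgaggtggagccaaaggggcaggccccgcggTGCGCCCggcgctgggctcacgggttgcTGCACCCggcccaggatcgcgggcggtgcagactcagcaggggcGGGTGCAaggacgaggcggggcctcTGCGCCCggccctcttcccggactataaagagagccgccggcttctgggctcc
SLC30A1 (chr1:211579162-211579411, minus strand): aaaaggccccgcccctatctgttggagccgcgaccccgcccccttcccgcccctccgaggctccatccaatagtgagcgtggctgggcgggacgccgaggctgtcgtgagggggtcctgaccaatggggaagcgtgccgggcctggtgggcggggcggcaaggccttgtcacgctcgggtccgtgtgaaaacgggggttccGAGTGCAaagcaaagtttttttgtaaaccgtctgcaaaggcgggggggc
The whole windows held 8 matches for MT2A, 4 for MT1X and 2 for SLC30A1, and the parts before the start 7, 4 and 1. Of the 35116 promoters listed by RefSeq, 29.55% had at least 1 match, 8.6% at least 2, 0.6% at least 4 and 0.02% at least 8. MT1H also had 8 matches, and no count in any library. Of the called transporters SLC30A7, SLC30A10, SLC39A7 and SLC39A11 had no match, and SLC39A5 had 1 match in 1 of its 2 windows. MTF1 itself had none. A match is a description of the letters and not a binding site.

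**Figure D3:**
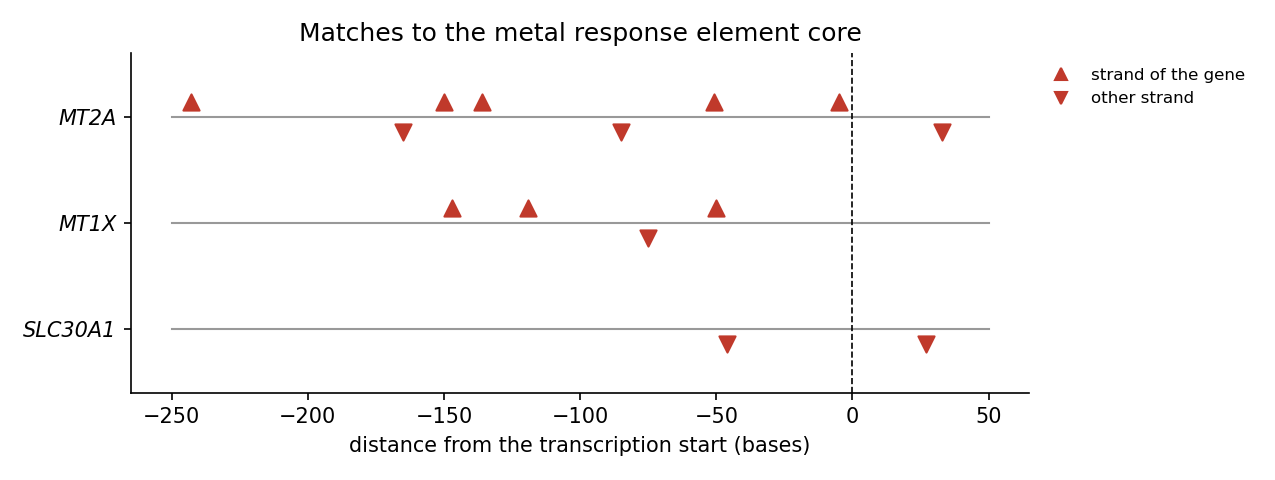
Positions of matches to the metal response element core relative to the transcription start of MT2A, MT1X and SLC30A1, with triangles pointing up for the strand of the gene and down for the other strand. MT2A has 8 matches across the window, MT1X 4 and SLC30A1 2.

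SLC30A1 stood at 71.1, 64.8 and 58.2 CPM in siCON and at 79.3, 54.6 and 53.9 CPM in siDGk libraries. The siDGk values lay on both sides of the siCON range. The log2 fold change was −0.05 with a 95% interval of −0.36 to 0.26 (adjusted p = 0.876 in edgeR's test), an interval far below that of MT2A. Its sign turned when single libraries were left out, with a range from −0.27 (siDGk replicate 1 left out) to 0.04 (siDGk replicate 3 left out). SLC30A1 was singled out after its values were seen.

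Among the other exporters, SLC30A10 and SLC30A7 were called. SLC30A10 (chr1:219685427-219959018), which exports manganese from hepatocytes, was at 15.8, 18.5 and 16.7 CPM in siCON and 10.7, 8.80 and 6.76 CPM in siDGk libraries. All siDGk libraries were below all siCON libraries, with a log2 fold change of −0.96 (SE 0.25, edgeR adjusted p = 0.0103). SLC30A7, which loads zinc into the Golgi apparatus, was at 13.7, 18.5 and 13.8 CPM in siCON and 23.9, 27.9 and 22.7 CPM in siDGk libraries. It was higher in each siDGk library, with a log2 fold change of 0.69 (SE 0.20, edgeR adjusted p = 0.0207). This call was lost without siCON replicate 1 or 3 (adjusted p = 0.0817 and 0.0886) and without siDGk replicate 1 or 2 (0.0615 and 0.0867). SLC30A5 and SLC30A6, partners in the early secretory pathway, and SLC30A9, the mitochondrial member, were not called, with log2 fold changes of −0.02, −0.02 and −0.30. SLC30A3 had 7, 9 and 27 counts in siCON and 2, 1 and 0 in siDGk libraries and SLC30A4 had 13 counts in siDGk replicate 2 and 0 elsewhere; neither was tested.

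The importers included the most abundant transporters. By canonical transcript length the 10 highest in mean TPM were all SLC39 genes, led by SLC39A7, SLC39A4, SLC39A1 and SLC39A14 at 195, 152, 128 and 116 TPM. With the length of all exons SLC30A1 and SLC30A9, at 36.9 and 31.7 TPM, took the places of SLC39A3 and SLC39A11, and the order of the leaders became SLC39A7, SLC39A14, SLC39A1 and SLC39A4. SLC39A5 (chr12:56230049-56237846), an importer of the basolateral membrane, was at 95.2, 99.7 and 98.6 CPM in siCON and at 39.2, 42.0 and 38 CPM in siDGk libraries. Both groups were tight and far apart, and the log2 fold change of −1.30 (SE 0.11, edgeR adjusted p = 1.28e-07) was the largest fall among the members tested. SLC39A11, a more distant member of the family, was at 42.1, 42.2 and 38 CPM in siCON and 24.2, 16.6 and 20.4 CPM in siDGk libraries. Every siDGk library was lower, with a log2 fold change of −0.9995 (SE 0.17, edgeR adjusted p = 0.000368).

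SLC39A7, which releases zinc from the endoplasmic reticulum, was at 300.3, 277 and 299.7 CPM in siCON and 197, 183 and 202 CPM in siDGk libraries. The groups did not overlap, with a log2 fold change of −0.59 (SE 0.08, edgeR adjusted p = 2.59e-05). SLC39A4, the importer mutated in the zinc deficiency acrodermatitis enteropathica, was at 194, 202 and 198 CPM in siCON and 141, 134 and 131 CPM in siDGk libraries. It was lower in each siDGk library, with a log2 fold change of −0.55 (SE 0.08, edgeR adjusted p = 8.55e-05). SLC39A14, a hepatocyte importer of zinc, iron and manganese, was at 347, 311 and 297 CPM in siCON and 265, 222 and 250.3 CPM in siDGk libraries. It too was lower in each siDGk library (adjusted p = 0.0046 in edgeR's test), but its log2 fold change of −0.37 stayed inside the fold threshold. Exons of SLC39A7 overlap RXRB, those of SLC39A5 overlap ANKRD52 and those of SLC39A4 overlap a noncoding gene, each on the opposite strand. The counting ignored strand.

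**Figure D4:**
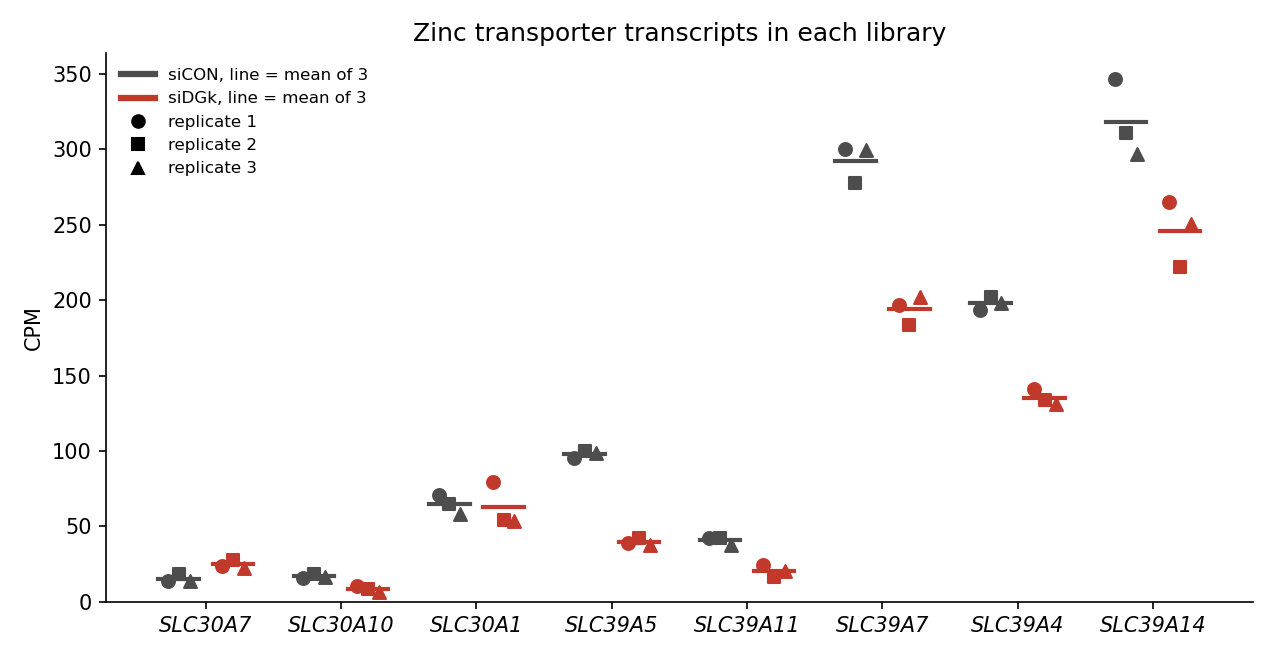
CPM of 8 zinc transporters in each library, with lines at the means of 3 siCON and 3 siDGk libraries. SLC30A7 is higher in siDGk, SLC30A1 overlaps, and SLC30A10, SLC39A5, SLC39A11, SLC39A7, SLC39A4 and SLC39A14 have all siDGk libraries below all siCON libraries.

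The other abundant importers were not called. SLC39A1, the widely expressed importer of the plasma membrane, was at 127.5, 134.5 and 139.4 CPM in siCON and 145, 138 and 136 CPM in siDGk libraries, which overlapped. Its log2 fold change was 0.06 with a 95% interval of −0.12 to 0.25. SLC39A6 and SLC39A10, which form a complex at the plasma membrane, had log2 fold changes of −0.17 and 0.05. SLC39A13, a zinc carrier of the secretory pathway mutated in a form of Ehlers-Danlos syndrome, was higher in each siDGk library (39.8, 42.0 and 36.2 against 55.0, 47.3 and 49.1 CPM) without passing (log2 fold change 0.36, adjusted p = 0.0782 in edgeR's test). SLC39A3 had a log2 fold change of −0.50 (edgeR adjusted p = 0.0806) and was called, at −0.52, among genes with a mean TPM above 10 (0.0394, over all alternatives 0.0394 to 0.278). The remaining SLC39 genes tested were SLC39A8, with 16 to 50 counts per library, and SLC39A9, at log2 fold changes of 0.87 and −0.37 that were not called.

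**Figure D5:**
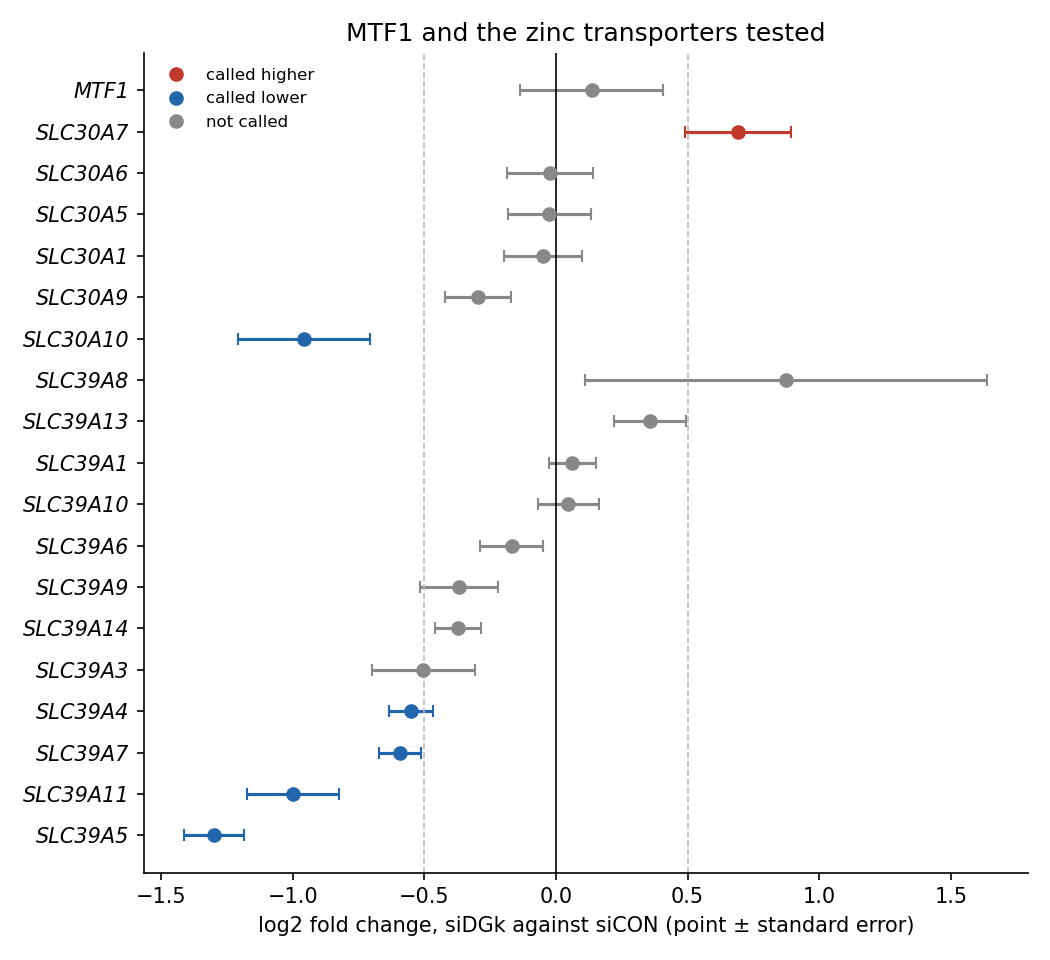
Log2 fold change of siDGk against siCON for MTF1 and the 18 transporters tested, with bars of 1 standard error, dashed lines at the fold threshold of 0.5 and colors for genes called higher, lower or not called. SLC30A7 at 0.69 is the single gene called higher, and SLC39A5 at −1.30 lies farthest below 0.

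Genes of related pathways were read in the same fit. Of 9 copper handling genes 0 were called higher (0 by unadjusted p and in DESeq2) and 2 lower (2 by unadjusted p and in DESeq2). Among all genes tested 7.42% were called higher and 6.68% lower. ATP7B, the copper-exporting ATPase of hepatocytes, fell from 85.2 ± 4.78 to 45.8 ± 2.34 CPM (SD, n = 3). SOD1, the copper and zinc superoxide dismutase, fell from 275 ± 16.6 to 175 ± 11 CPM (SD, n = 3). Their log2 fold changes were −0.90 and −0.65. Of 4 other zinc proteins tested 0 were called in edgeR's test or in DESeq2, and 1 passed an unadjusted p, inside the fold threshold. Among 12 metal and oxidative stress genes 1 was called higher and 2 lower (7.42% and 6.68% of all genes tested). SLC7A11, the cystine importer, had a log2 fold change of 1.30. HMOX1, a heme oxygenase inducible by metals, was at 55.6, 66.0 and 76.2 CPM in siCON and 41.0, 23.6 and 28.0 CPM in siDGk libraries, a log2 fold change of −1.09 (adjusted p = 0.000236 in edgeR's test). OSGIN1, an oxidative stress response gene, was at −0.69. By unadjusted p 5 of the 12 were higher and 2 lower at any fold (15.82% and 14.75% of all genes tested). Beyond the fold threshold these numbers were 2 and 2 (9.73% and 8.92%). DNAJB1, HSPH1 and TXNRD1 passed the adjusted p as well and stayed inside that threshold. The list summed to 1423, 1330 and 1399 CPM in siCON and 1630, 1544 and 1591 CPM in siDGk libraries, higher in each siDGk library.

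Metallothioneins are also known targets of glucocorticoids and of STAT3 signaling in liver. Of 8 glucocorticoid target genes tested 2 were called higher and 1 lower, against 7.42% and 6.68% of all genes tested. By unadjusted p 2 were higher and 2 lower at any fold (15.82% and 14.75% of all genes tested). KLF9, a zinc finger factor, and DUSP1, a phosphatase of MAP kinases, had log2 fold changes of 0.93 and 0.84. SGK1, a serine/threonine kinase, was at −1.42, a call lost without siCON replicate 1, 2 or 3 (adjusted p = 0.0763, 0.108 and 0.0564 in edgeR's test) and without siDGk replicate 2 (0.149). Of 7 liver STAT3 target genes tested 0 were called higher (0 by unadjusted p and in DESeq2) and 4 lower. The lower ones were the fibrinogen chains FGB, FGA and FGG at −1.90, −1.86 and −1.13, and haptoglobin HP at −1.07. Of all genes tested 6.68% were called lower, and of the 8 hepatocyte genes above 7 were.

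Markers of other cell types were read beside these results. Of 5 fibroblast and stellate cell markers 3 were tested; COL1A1 was called higher and PDGFRB lower. The list summed to 12.1, 15.0 and 10.3 CPM in siCON and 42.3, 54.8 and 21.6 CPM in siDGk libraries. Its most abundant gene was PDGFRB in siCON (9.25 to 13 CPM) and COL1A1 in siDGk libraries, at 20.2, 20.7 and 17.4 CPM against 0.481, 1.97 and 1.05 CPM in siCON libraries, a log2 fold change of 4.04, and 4.76 without siCON replicate 2. COL3A1 was at 8.0, 15.6 and 0.414 CPM in siDGk and at most 0.0533 CPM in siCON libraries. DCN had no count in siCON libraries, and DCN and COL1A2 had none in siDGk replicate 3. PDGFRB was at −1.02, a call lost when any single library other than siDGk replicate 2 was left out (adjusted p = 0.0551 to 0.125 in edgeR's test). The 3 endothelial markers summed to 1.66, 1.39 and 2.29 CPM in siCON and 3.78, 56.2 and 4.05 CPM in siDGk libraries, with VWF the most abundant at 31.4 CPM in siDGk replicate 2. None of the 3 was called in edgeR's test or in DESeq2, and 2 passed an unadjusted p. Of 5 leukocyte markers 0 were called by edgeR, DESeq2 or unadjusted p; their sum of 1613 to 1902 CPM was nearly all LYZ. As with VWF, siDGk replicate 2 had the highest level of PTPRC, at 7.94 CPM (0.191 to 2.93 CPM in siCON), and of CD3E, at 3.63 CPM (0.533 to 0.858 CPM in siCON). GFAP, a brain marker, was at or below 0.534 CPM. Without siDGk replicate 2 the log2 fold changes were 3.26 for MT2A, 3.89 for MT1E, 2.69 for MT1X and −1.34 for SLC39A5. COL1A1 was at a like level in each siDGk library, so leaving out replicate 2 does not bear on it. In bulk RNA, COL1A1 transcripts of HepG2 cells and of other cells cannot be told apart. Any part of the cells expressing COL1A1, or of the lower hepatocyte genes, in the metallothionein and transporter results was not tested.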

How the data were processed

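RNA-seq counts of 3 siCON and 3 siDGk HepG2 cultures were analysed. The deposited values are whole counts per gene, not normalized. The authors aligned paired-end reads to GRCh38 with Gencode 27 in STAR 2.6.1 after removing tRNA, rRNA, adapter and spike-in reads, dropped low-complexity reads, and counted with featureCounts 1.6.5, where reads under a Phred quality of 10 were left out and other settings were the defaults, under which strand is ignored and reads with several alignments or several genes are dropped. Metallothionein copies and overlapping genes are therefore uncertain.

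Counts were filtered with filterByExpr (minimum count 10), scaled by TMM and compared with the robust quasi-likelihood test of edgeR 4.0.16 in R 4.3.3 with condition as the sole factor. Benjamini-Hochberg adjustment covered all 14476 genes, and calls required an adjusted p under 0.05 with a log2 fold change beyond 0.5 in either direction. Standard errors were derived from the F statistic (absolute change over its square root), and intervals are at 95%. CPM use TMM-scaled library sizes; TPM use Gencode 44 canonical transcript lengths. The floor is 3 counts over a group for folds and 3 counts per library for CPM limits, for counting error only. Each pair of replicates differed by more than sampling noise (chi-square over its degrees of freedom, 10.7 to 25.7). Coding sequences were aligned in Biopython 1.88. Scripts were tested on simulated data.

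Named were each metallothionein, MTF1, transporters called or among the 10 highest by mean TPM, and up to 4 called genes of each list with the largest changes; SLC30A1 and genes without a call or below the filter were named after their values were seen. Members and lists were chosen with earlier results of these data known. The settings varied were the test (DESeq2 1.42.0, plain or with shrunken changes), RLE or upper-quartile scaling, metallothioneins left out of library sizes, no count filter, a mean TPM above 10, a block for the replicate number, the fold threshold (none, or 1 on the log2 scale), and the omission of each library.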

Additional observations from a re-analysis of the deposited data

How the results depend on the processing

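MT2A, MT1E, MT1X and SLC39A5 kept their direction and their call under all 16 alternatives, at log2 fold changes of 2.69 to 3.41, 3.56 to 4.15, 1.96 to 2.88 and −1.34 to −1.25. The summed metallothionein mean in siDGk was followed in 10 of the alternatives and stayed between 1282 and 1382 CPM. The siCON mean and the fold between groups were not followed. A log2 threshold of 1 left 819 calls, 464 higher and 355 lower, and among the transporters 0 higher and 1 lower. With a mean TPM above 10, where SLC30A7 was not tested, 0 transporters were called higher. Without 1 library each, 0 to 1 transporters were called higher. RLE scaling, upper-quartile scaling and metallothioneins left out of library sizes changed no direction and no call among 42 genes named. The count of metallothioneins called higher was 3 or 4 in all 16 alternatives.

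Signs turned for values that were not called. MT1F ran from −0.70 to 0.49 without 1 library each, at 0.13 without siCON replicate 3 and 0.49 without siDGk replicate 3. MTF1 ran from −0.14 without siDGk replicate 3 to 0.31. SLC39A10 ran from −0.036 without siDGk replicate 1 to 0.099, and was at −0.0080 without siCON replicate 2. SLC30A1 ran from −0.27 without siDGk replicate 1 to 0.041, at 0.026 without siCON replicate 1, 0.040 without siDGk replicate 2 and 0.041 without siDGk replicate 3. The cause was not tested. In the part of the window before the start SLC30A1 had 1 promoter match, since that window is shorter.

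Same-numbered libraries showed no pairing (correlations of 0.024, 0.017 and −0.0022 across genes). With the replicate block 2077 genes were called, 3 metallothioneins higher, 1 transporter higher and 5 transporters lower; MT1M (adjusted p = 0.0945) and MT1L (adjusted p = 0.0596) were not called. MT1M was also not called with shrunken fold changes (0.44) or no count filter (adjusted p = 0.0658), and MT1A was called with no count filter (adjusted p = 0.0136); over the alternatives these adjusted p ran from 0.00227 to 0.139 for MT1M and from 0.0136 to 0.531 for MT1A. No count filter moved the median of all genes to 0.14. MT1F, MT1G, MT1M and MT3 have too few counts for small differences to be detectable.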
